A study of Mus musculus with 6 samples.

Results

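The genes described here are 10 genes of mouse pluripotent cells, Pou5f1, Nanog, Sox2, Esrrb, Klf4, Zfp42, Utf1, Tdgf1, Lin28a and Lin28b, followed after embryonic stem cells had been differentiated towards spinal motor neurons. They were chosen by name, and all 10 were found among the 19613 genes with values. The arrays measured embryoid bodies, aggregates grown from HBG3 mouse embryonic stem cells (spelled HGB3 in the methods of the study) that carry an HB9-eGFP reporter of the motor neuron gene Mnx1 and were treated with retinoic acid and the Hedgehog agonist Hh-Ag1.3. Motor neurons were only a part of the cells of these bodies. All 6 arrays belong to 1 group, in which the bodies were exposed to blood fluid from male carriers of the Huntington's disease strain B6CBA-Tg(HDexon1)62Gpb/3J before onset of symptoms. The strain carries the first exon of the human huntingtin gene with a long repeat. The fluid is called plasma in the labels and serum in the methods, and the age of the donor mice is stated in the methods and not in the labels. The methods count 6 Huntington's disease samples without saying which were assayed on the same batch of embryoid bodies. Undifferentiated stem cells and bodies with other serum were not analysed here, so no value below is a change during differentiation or a response to serum.

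Pluripotent stem cells are held in an undifferentiated state by a circuit of transcription factors. Pou5f1 (OCT4) and Sox2 bind side by side on shared DNA elements, often together with Nanog, and Esrrb, Klf4 and Zfp42 (REX1) belong to the naive state that precedes implantation. Utf1 is a chromatin-bound factor of embryonic stem cells, and Tdgf1 (Cripto) is a co-receptor for the ligand Nodal. Lin28a and Lin28b are RNA-binding proteins that block maturation of the let-7 microRNAs. Sox2 and the Lin28 genes have a second use in neural progenitors, where Sox2 works with other POU factors in place of Pou5f1, and they were therefore kept apart from the other 7 genes.

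The promoters of 3 of the genes are shown because they hold 7 letters of the octamer to which POU factors such as Pou5f1 bind. Each sequence is from RefSeq on the assembly GRCm38.p6, runs 5′ to 3′ on the strand of the gene and covers 300 bases around a start site. Capitals mark the octamer letters ATGCAAA or their reverse complement TTTGCAT, and in Nanog also the SOX letters that adjoin them. The Nanog window is on the plus strand at chr6:122707239-122707538.
Nanog: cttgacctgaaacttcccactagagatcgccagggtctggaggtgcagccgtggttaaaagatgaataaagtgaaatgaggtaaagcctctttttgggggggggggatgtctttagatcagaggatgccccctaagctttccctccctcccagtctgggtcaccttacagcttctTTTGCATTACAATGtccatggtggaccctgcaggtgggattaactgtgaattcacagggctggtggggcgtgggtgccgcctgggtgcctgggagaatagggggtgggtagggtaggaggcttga
The Sox2 window is on the plus strand at chr3:34649745-34650044.
Sox2: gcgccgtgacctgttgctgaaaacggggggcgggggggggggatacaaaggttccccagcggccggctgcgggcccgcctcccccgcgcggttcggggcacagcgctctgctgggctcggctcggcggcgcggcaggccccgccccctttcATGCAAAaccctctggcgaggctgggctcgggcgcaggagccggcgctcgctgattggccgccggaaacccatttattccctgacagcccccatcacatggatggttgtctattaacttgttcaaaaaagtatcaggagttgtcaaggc
The Zfp42 window is on the minus strand at chr8:43306960-43307259.
Zfp42: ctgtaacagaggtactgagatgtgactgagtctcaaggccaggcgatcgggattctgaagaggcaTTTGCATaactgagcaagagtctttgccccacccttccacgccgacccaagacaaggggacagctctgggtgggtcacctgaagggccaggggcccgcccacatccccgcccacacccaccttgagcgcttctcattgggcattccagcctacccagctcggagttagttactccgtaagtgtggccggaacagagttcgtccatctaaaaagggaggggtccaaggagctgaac

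In the Nanog promoter the octamer and the SOX letters CATTGT (on the other strand ACAATG) stood side by side, with 1 base between them, from -75 to -62 relative to the start site. The same element lies in a second annotated Nanog start site window, from -151 to -138. Those 2 windows were the only ones among 32851 promoters of this length to hold CATTGTNATGCAAA or its reverse complement TTTGCATNACAATG. The 7-letter octamer alone stood from -99 to -93 in Sox2 and from -185 to -179 in Zfp42. It occurred on either strand in 4.63% of all promoters, or in 5.24% of all genes counted once per gene, and in 3 of the 10 genes. All 8 letters, ATGCAAAT, occurred in 1.74% of promoters and 1.97% of genes, and in 1 of the 10 genes, Zfp42. The SOX letters alone occurred in 12.6% of promoters and 14.3% of genes, and in 4 of the 10 genes, Esrrb, Lin28a, Nanog and Pou5f1. The 2 motifs do not overlap in Nanog, and letters in these windows are a description of sequence and not of binding.

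Background was set by genes for olfactory receptors, a family of 1032 genes with names that begin with Olfr and are mostly silent outside the olfactory epithelium. The level taken as background was the 95th percentile of the means of these genes, 7.47 on the log2 intensity scale. Each gene was tested for its distance from this level with limma over all 19613 genes, and 52 of the olfactory receptor genes lie above the level by construction. The p-values treat the background as known and measure only the spread between arrays. Levels of different genes are read by different probes, so an order of genes by their distance from this common level is an order of array signal and not of RNA amount. In such mixed cultures, fewer cells of a type and less RNA per cell cannot be told apart.

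Of the 10 genes, 7 lay above this background, namely Nanog, Sox2, Klf4, Utf1, Tdgf1, Lin28a and Lin28b, 1 lay below it (Esrrb), and Pou5f1 and Zfp42 passed in neither direction. Over all genes, 63.1% were called above and 32.5% below, and the means of 65.2% exceeded the level without a test, as did those of the same 7 genes. The share of the 10 genes above background was thus near that of all genes, and the median distance of the 10 genes, 0.63, was below the median of all genes, 0.79. Among the 7 genes other than Sox2 and the Lin28 genes, 4 were above, 1 was below and 2 passed in neither direction, and Sox2 and both Lin28 genes were above.

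**Figure D1:**
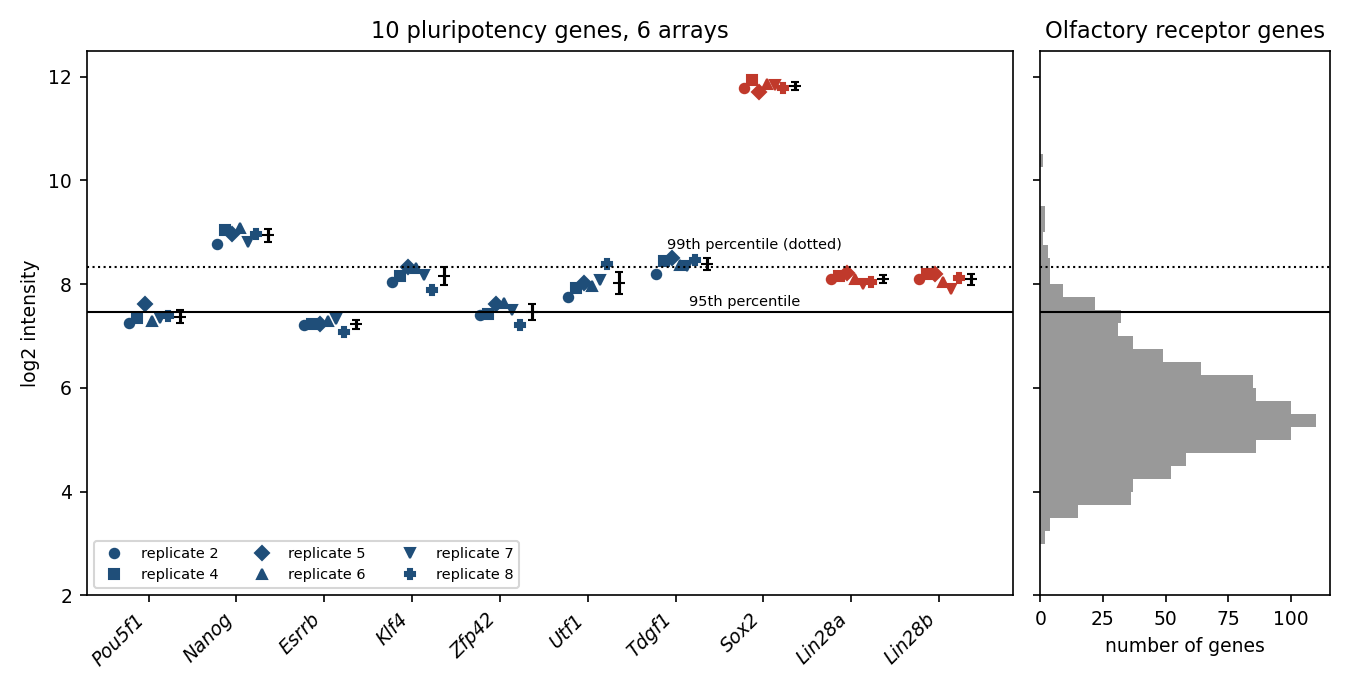
The left panel plots the log2 intensity of each of the 10 genes on the 6 arrays, with 1 marker shape per replicate and, beside the points, the mean and SD over arrays, with Sox2, Lin28a and Lin28b in red. The right panel counts the 1032 olfactory receptor genes by their mean level on the same axis. The solid line is their 95th percentile, 7.47, and the dotted line their 99th percentile, 8.33. Sox2 stands clear of both lines and Nanog lies above both on all 6 arrays, while Pou5f1, Esrrb and Zfp42 lie around or under the solid line.

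The 3 core factors lay in different places relative to the background. Pou5f1, the POU factor without which pluripotency is lost, had log2 intensities of 7.26, 7.34, 7.63, 7.29, 7.35 and 7.39 in replicates 2, 4, 5, 6, 7 and 8. Only replicate 5 exceeded the background of 7.47, and the other 5 arrays lay under it. Against the background of each array, replicate 8 was highest at 0.12 above it, replicate 5 lay 0.026 above it and the other 4 lay under it. The mean was 7.38 ± 0.13 (SD, n = 6), which differed from background by -0.09 with an SE of 0.048 and did not pass the test (adjusted p = 0.0889). Among the olfactory receptor genes, 93.6% had a lower mean and 66 a higher one. Without replicate 5 the distance was -0.13 and passed as below background (adjusted p = 0.00481), as it did without replicate 8 (-0.14, adjusted p = 0.0409).

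Nanog, a homeodomain factor of the naive inner cell mass and of embryonic stem cells, had values of 8.78, 9.04, 8.97, 9.09, 8.80 and 8.96 in the same order of replicates. All 6 arrays were above the 99th percentile of the olfactory receptor genes, 8.33, with replicates 2 and 7 lowest. The mean of 8.94 ± 0.12 (SD, n = 6) lay 1.47 above background (SE 0.046, adjusted p = 3.77e-09), and only 5 olfactory receptor genes had a higher mean. Relative to the background of its own array, Nanog was between 1.22 and 1.70 higher.

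Sox2, the SRY-box factor shared by pluripotent cells and neural progenitors, had values of 11.79, 11.94, 11.71, 11.86, 11.84 and 11.79. All arrays agreed to within 0.23, and no olfactory receptor gene had a mean as high. The mean of 11.82 ± 0.077 (SD, n = 6) lay 4.35 above background (SE 0.033, adjusted p = 7.80e-13). This was the only one of the 10 genes above every background tried, including the 95th percentile of 36 keratin-associated protein genes at 10.31. Sox2 lies within the noncoding gene Sox2ot, and the methods name no step that would separate signal of overlapping genes.

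Of the naive-state factors, Klf4 lay above background, Zfp42 at it and Esrrb below it. Esrrb, an orphan nuclear receptor of the naive circuit, had values of 7.22, 7.23, 7.23, 7.28, 7.33 and 7.07. No array reached the background, and replicate 8 was lowest. The mean of 7.23 ± 0.085 (SD, n = 6) lay at -0.24 from background (SE 0.035, adjusted p = 0.00017). A value under this level is still above that of most olfactory receptor genes, 92.2% of which had a lower mean than Esrrb.

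Klf4, a zinc finger factor used to reprogram somatic cells, had values of 8.05, 8.16, 8.34, 8.32, 8.18 and 7.89. Replicates 5 and 6 were highest and replicate 8 lowest, and all 6 arrays were above background. The mean of 8.16 ± 0.17 (SD, n = 6) lay 0.69 above background (SE 0.06, adjusted p = 5.32e-06), with 14 olfactory receptor genes higher. Klf4 is also expressed outside pluripotent cells, in epithelia among other tissues.

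Zfp42, a zinc finger gene long used as a marker of undifferentiated cells, had values of 7.41, 7.42, 7.62, 7.64, 7.50 and 7.20. These values fell on both sides of the background, with replicates 5, 6 and 7 above it. The mean of 7.47 ± 0.16 (SD, n = 6) differed from background by -0.0042 (adjusted p = 0.943). Against the background of each array, 2 of 6 values were higher and none was further than 0.078 from it. Replicates 5, 6 and 7 were those with the highest olfactory receptor levels, and replicate 8 that with the lowest.

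Utf1, the chromatin-bound factor, had the largest SD of the 10 genes. Its values were 7.75, 7.92, 8.02, 7.97, 8.08 and 8.38, a span of 0.63 between replicate 2 and replicate 8. Of the genes called above background, 97.2% had a smaller SD. The mean of 8.02 ± 0.21 (SD, n = 6) lay 0.55 above background (SE 0.072, adjusted p = 8.79e-05). Replicate 8 was thus highest for Utf1 and lowest for Esrrb, Klf4 and Zfp42.

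Tdgf1, the Nodal co-receptor, had values of 8.19, 8.45, 8.51, 8.36, 8.35 and 8.48. Replicate 2 was lowest, and all arrays were above background. The mean of 8.39 ± 0.12 (SD, n = 6) lay 0.92 above background (SE 0.044, adjusted p = 6.86e-08), with 10 olfactory receptor genes higher.

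The Lin28 paralogues had similar profiles. Lin28a had values of 8.10, 8.16, 8.22, 8.10, 7.997 and 8.04, and Lin28b had values of 8.09, 8.20, 8.20, 8.03, 7.91 and 8.12. In both genes replicates 4 and 5 were highest and replicate 7 lowest. Lin28a lay 0.63 above background (mean 8.10 ± 0.081, SD, n = 6, SE 0.034, adjusted p = 1.65e-07). Lin28b lay 0.62 above it (mean 8.09 ± 0.11, SD, n = 6, SE 0.042, adjusted p = 8.47e-07). For each of them 15 olfactory receptor genes had a higher mean.

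How many genes lay above background depended on the background. At the 99th percentile of the olfactory receptor genes, 8.33, only Nanog and Sox2 were called above. Tdgf1 then lay at 0.060 (adjusted p = 0.21), and Klf4, Utf1, Lin28a and Lin28b were called below. With vomeronasal receptor and keratin-associated protein genes as background the level rose to 8.76, and again only Nanog and Sox2 were called above. Of the 36 keratin-associated protein genes 15 had a mean above 7.47, against 2 of the 162 vomeronasal receptor genes. The level of 8.76 thus rests largely on the keratin-associated protein genes. The 162 vomeronasal receptor genes alone gave a lower level of 6.87, which the means of all 10 genes exceeded. Sequences related to Pou5f1, Nanog, Tdgf1 and Zfp42 are annotated as pseudogenes in RefSeq, so signal of these genes is uncertain to the extent that their probes read such copies.

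Whether the 10 genes varied together was asked over the 6 arrays, which share 1 group and no label of batch. The arrays correlated with each other over all genes at r = 0.991 to 0.997, so the differences that follow are small. Of the 45 pairs, 25 had a positive and 20 a negative Pearson's r, with a median of 0.18 and a range from -0.63 to 0.97. An exact permutation test over all 720 pairings gave an unadjusted p under 0.05 for 2 pairs, or 4.44% of pairs, and after Benjamini-Hochberg adjustment over all genes no pair passed, the lowest adjusted p being 0.116. The smallest p that 720 pairings allow is 0.00139, so this adjustment can pass only where many genes share a p near it. Not passing over all genes, here and for the correlations below, therefore says little about any single pair. By Spearman's rho 1 pair had an exact p under 0.05.

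The first pair was Zfp42 with Klf4. Their r was 0.97 (exact permutation p = 0.00278, adjusted p = 0.116 with Zfp42 and 0.118 with Klf4), and their rho was 0.94 (exact p = 0.0167). Without the 2 arrays farthest from the median, r was 0.92 by the values of Zfp42 and 0.91 by those of Klf4. Each gene had such a p with many others, since 19.7% of the genes called above background had an unadjusted p under 0.05 with Zfp42 and 17.7% with Klf4. The second pair was Lin28a with Lin28b, at r = 0.83 (exact permutation p = 0.0417, adjusted p = 0.923 with Lin28a) and rho = 0.77 (exact p = 0.103). Without the 2 farthest arrays r was 0.51 by the values of Lin28a and 0.66 by those of Lin28b, and the exact p was over 0.05 in 5 of 6 runs without 1 array. In these 6 runs r lay between 0.69 and 0.96. The corresponding shares of genes called above background were 6.28% for Lin28a and 6.21% for Lin28b.

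Esrrb came next to the first pair but did not pass. Its r was 0.80 with Zfp42 (exact p = 0.0542, rho 0.83, exact p = 0.0583) and 0.75 with Klf4 (exact p = 0.0792, rho 0.77, exact p = 0.103). Without replicate 8 the r was 0.34 with Zfp42 and 0.24 with Klf4. Without replicate 7 it was 0.90 (exact p = 0.00833) and 0.87 (exact p = 0.025), so both relations depended on the array left out. Among genes called above background, 16.9% had a p under 0.05 with Esrrb.

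Among Pou5f1, Nanog and Sox2 no covariation was detected on these arrays. The r was 0.16 between Pou5f1 and Nanog (exact permutation p = 0.80, rho 0.086), 0.34 between Nanog and Sox2 (exact p = 0.511, rho 0.54) and -0.63 between Pou5f1 and Sox2 (exact p = 0.206, rho -0.37). Replicate 5 was highest for Pou5f1 and lowest for Sox2. None of these 3 values passed, and 6 arrays cannot tell a moderate covariation from none. Of the genes called above background, 4.23% had an unadjusted p under 0.05 with Pou5f1, 2.17% with Nanog and 4.92% with Sox2, and for Utf1 and Tdgf1, which took part in 0 such pairs, the shares were 5.83% and 2.64%.

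The pairs were also counted by use in neural cells. Within the 7 genes other than Sox2 and the Lin28 genes, 1 of 21 pairs had an exact p under 0.05 and the median r was 0.25. Within Sox2, Lin28a and Lin28b it was 1 of 3 pairs, with a median of -0.12, and Sox2 had r = -0.20 with Lin28a and -0.12 with Lin28b. Between both sets it was 0 of 21 pairs, with a median of -0.017 and a range from -0.63 to 0.57. The difference between these parts was not tested.

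**Figure D2:**
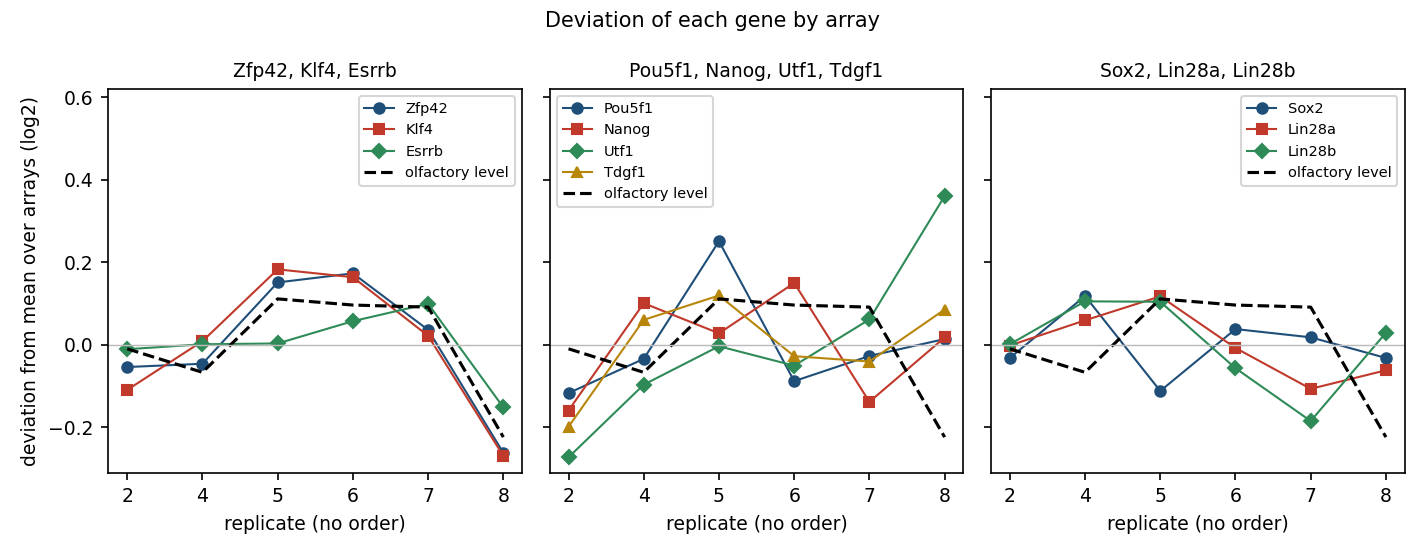
Each panel plots, for the genes named above it, the log2 intensity minus the mean of that gene over the 6 arrays, against the replicate, and the dashed line is the 95th percentile of the olfactory receptor genes on each array, treated the same way. Lines only join the points of a gene, since replicates have no order. Zfp42, Klf4 and Esrrb are lowest in replicate 8, where the dashed line is lowest too, Utf1 is highest there, and Lin28a and Lin28b share their lowest value in replicate 7.

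The level of the olfactory receptor genes itself differed between arrays and moved with 3 of the 10 genes. Their 95th percentile was 7.48, 7.42, 7.60, 7.58, 7.58 and 7.26 in replicates 2, 4, 5, 6, 7 and 8, with replicate 8 lowest. Its r was 0.95 with Zfp42 (exact p = 0.00694, rho 0.89, exact p = 0.0333), 0.89 with Klf4 (exact p = 0.0181, rho 0.94, exact p = 0.0167) and 0.88 with Esrrb (exact p = 0.0347, rho 0.71, exact p = 0.136). Adjusted over 20 such relations (10 genes with this level and with the lower quartile of all genes), the p-values were 0.0722, 0.0722 and 0.116. Without the 2 arrays farthest from the median level r was 0.86, 0.90 and 0.51. The other 7 genes had r between -0.52 and 0.24 with this level.

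With this level held constant (partial r, a value with no test), Zfp42 and Klf4 stood at 0.91, Zfp42 and Esrrb at -0.30 and Klf4 and Esrrb at -0.18. Lin28a and Lin28b stood at 0.9996. Nanog, which had r = 0.25 with Zfp42 and 0.38 with Klf4, had partial r of 0.97 and 0.94 with them, and Sox2 had 0.87 with Esrrb. A partial r over 6 arrays leaves few degrees of freedom, and the part of the array level in these relations was not tested beyond these values. When the olfactory level of each array was subtracted from every gene, which adds 1 common term to all genes, 6 pairs had an exact p under 0.05, and Lin28a with Lin28b was among them at r = 0.998 (exact p = 0.00139, the smallest that 720 pairings gave). The other 5 were Sox2 with Esrrb and Tdgf1 with Pou5f1, Nanog, Utf1 and Lin28b.

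**Figure D3:**
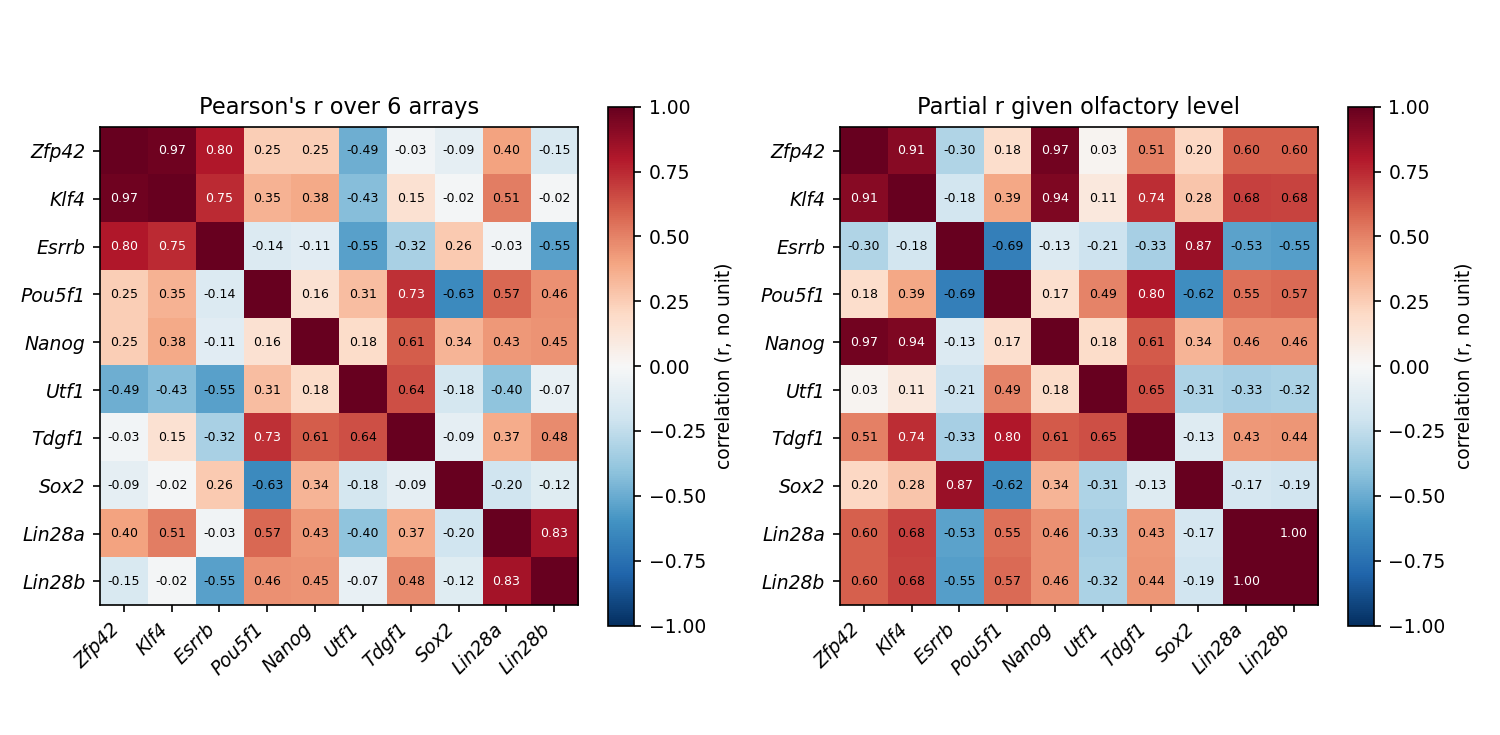
Both panels show the 45 pairs of the 10 genes as coloured cells with the value printed, on a scale from -1 (blue) to 1 (red). The left panel gives Pearson's r over 6 arrays and the right panel the partial r with the 95th percentile of the olfactory receptor genes of each array held constant. On the left the cells near 1 are Zfp42 with Klf4 and Lin28a with Lin28b, and on the right Esrrb turns blue with Zfp42 and Klf4 while Nanog turns red with them.

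Other genes of the pluripotency circuits were spread on both sides of the background. Of 25 measured genes of a naive network list, 13 were called above, 10 below and 2 neither, with a median of 0.10 from background. Tet2 and Tet1, which oxidise methylated cytosine, lay 3.43 and 2.004 above it, Klf5 2.61 and Mycn 1.89, and Tet1, Tet2 and Mycn are also used by neural progenitors. Those lowest were Dppa3 (-2.14), Fbxo15 (-1.18), Dppa4 (-1.16) and Eras (-1.004), which are known for expression in early embryos, germ cells or embryonic stem cells. Other genes of the list were called above, among them Sall4 (1.16), Fgf4 (1.10), Tbx3 (1.095) and Dppa2 (0.605), so those lowest do not stand for the list. Of 10 genes of the formative epiblast, the state after implantation, 5 were above and 4 below (median 0.42). Pou3f1 (3.45), Sall2 (2.35), Dnmt3a (2.31) and Eomes (1.05) were highest, and Otx2 (-0.64), Mixl1 (-0.58), Foxd3 (-0.31) and Fgf5 (-0.28) lowest. The list cannot separate epiblast from other cells that use the same genes, and Pou3f1, a POU factor, was not counted with those of neural cells below.

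Around Tdgf1, genes of the Nodal pathway lay on both sides of the background. Of 13 genes 9 were above and 4 below (median 0.76). The signal transducers Smad4 (3.60), Smad2 (2.75) and Smad3 (2.67) and the receptor Acvr1b (2.64) were highest. The antagonist Lefty2 (-1.15), the receptor Acvr1c (-1.09), the second co-receptor Cfc1 (-0.47) and the transcription factor Foxh1 (-0.43) were below. Smad proteins and Acvr1b also serve other ligands of the same superfamily.

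Around Lin28a and Lin28b, all 11 measured genes of the let-7 axis were above background (median 2.79). The uridylyltransferase Zcchc11 (3.55), the nuclease Dicer1 (3.42) and the RNA-binding proteins Igf2bp1 (3.27) and Igf2bp2 (3.01), which are let-7 targets, were highest. Trim71 (1.28), Zcchc6 (1.82), Arid3b (1.89) and Dis3l2 (2.25), the nuclease that degrades uridylated let-7 precursors, were lowest. These 11 genes hold no mature let-7, which the array values used here do not measure.

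Around Sox2, 11 of 12 neural progenitor genes were above background (median 2.499) and Pax6 was below it at -0.58. Fabp7 (6.43), Msi1 (4.52), Notch1 (3.51) and Nkx6-1 (3.08) were highest, and Olig2 (1.53), Sox3 (1.73) and Sox1 (2.12) lowest among those above. All 7 genes of the list of neural POU factors were above background (median 2.04), with Pou3f4 at 4.64, Pou2f1 at 2.89, Pou3f3 at 2.60, Pou6f1 at 2.04, Pou3f2 at 1.95, Pou2f2 at 1.70 and Pou4f1 at 1.49. Pou5f1 stood at -0.09. Being on this list does not make a gene specific to neural cells, and these distances are array signal and not RNA amount. All 8 measured motor neuron genes were above it (median 2.26), from Mnx1 (1.01) and Lhx3 (1.17) to Isl1 (2.86), Map2 (4.42) and Tubb3 (5.34). The means of Mnx1 (8.48) and Lhx3 (8.64) were under the alternative background of 8.76, which rests largely on keratin-associated protein genes. Signal above background does not give the share of motor neurons in the bodies. Sox2 had an exact p under 0.05 with 2 of the 11 neural progenitor genes, Msi1 (r = 0.85, exact p = 0.0208, rho 0.94 with exact p = 0.0167, r = 0.89 without the 2 farthest arrays) and Nkx6-1 (r = 0.89, exact p = 0.0125, rho 0.94 with exact p = 0.0167, r = 0.83 without them). Neither passed over all genes (adjusted p = 0.9999 for both), against a share of 4.92% of all genes called above background.

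Of the cell types that such bodies can also hold, all 7 proliferation genes were above background (median 3.06), from Bub1 at 2.57 to Top2a at 3.28. For primitive endoderm it was 4 of 7 (median 0.38), Foxa2 being highest at 3.06 and Afp lowest at -1.40. For simple epithelium it was 3 of 5 (median 0.47), with Cdh1 at 1.74 and Epcam at -0.49, for trophoblast 2 of 5 (median -0.057), with Eomes at 1.05 and Elf5 at -1.04, and for mesoderm and endothelium 2 of 7 (median -0.22), with Myod1 at 0.26 and Tek at -1.38. All 5 germ cell genes were below background (median -0.93), from Prdm1 at -0.20 to Sycp3 at -1.53. The part of any of these cells in the level of the 10 genes was not tested. Foxa2 also marks the floor plate, Eomes stands on 2 of the lists, and the lists, like the 10 genes, are read against the 63.1% of all genes called above.

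**Figure D4:**
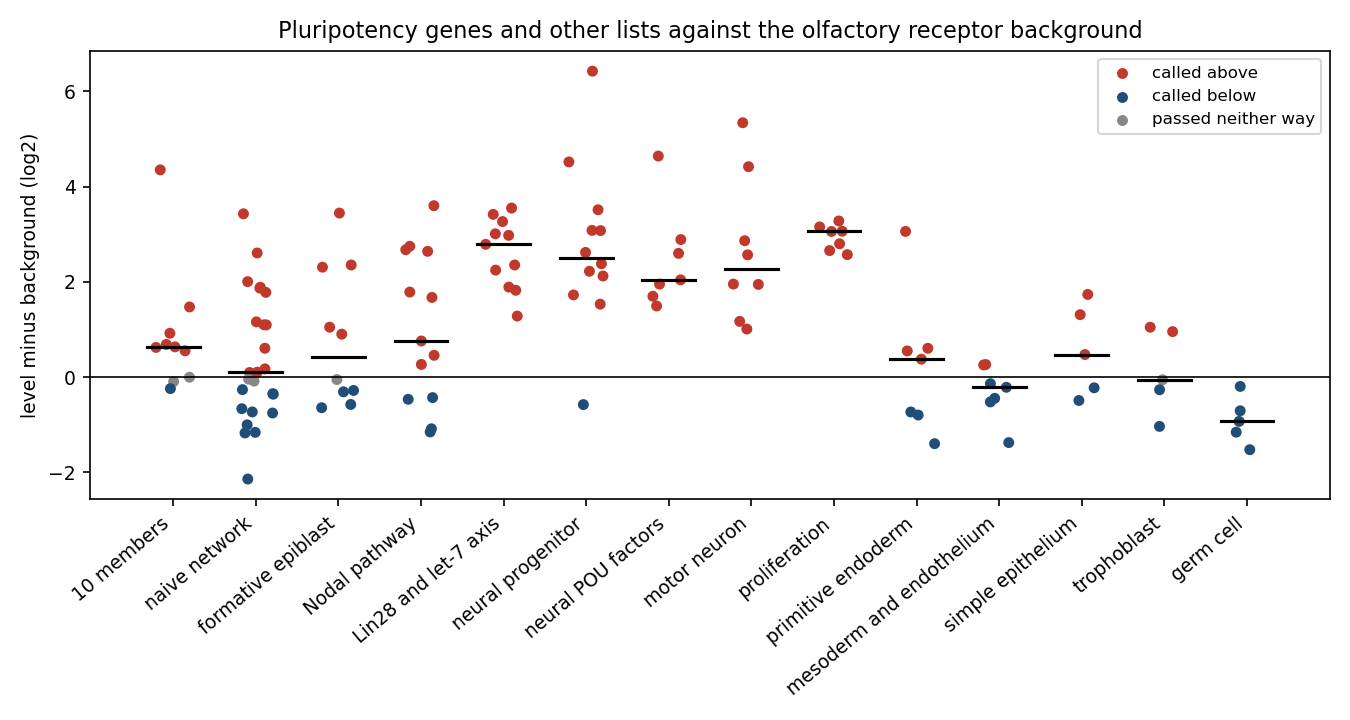
Each point is 1 gene, placed by its mean log2 intensity minus the background of 7.47, for the 10 genes and 13 lists, with a bar at the median of each list. Red points were called above, blue points below and grey points in neither direction. The lists for the let-7 axis, neural POU factors, motor neurons and proliferation lie wholly above the line, the germ cell list lies wholly below it, and the naive network is spread on both sides.

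The genes whose variation over the 6 arrays was most like that of each gene above background were taken among genes above background with an SD of at least the median of 0.074. For Nanog they were BC027231 (r = 0.98), Taf7 (0.98) and LOC100046297 (0.96), and for Sox2 they were Gtf2f1 (0.98), Pinx1 (0.98) and Stk17b (0.98). For Klf4 they were Zfp365 (0.997), Gm13280 (0.99) and Tmc8 (0.99), and for Utf1 Hsd17b7 (0.99), Zfp710 (0.98) and Cyp20a1 (0.98). For Tdgf1 they were C330021F23Rik (0.98), Clic1 (0.98) and Gm16488 (0.95). For Lin28a they were Neu1 (0.98), Tmem192 (0.98) and Acadvl (0.97), and for Lin28b Gas5 (0.996), Dusp12 (0.99) and Ddhd2 (0.98). None of these 21 relations passed over all genes, the lowest adjusted p being 0.106 for Zfp365. Their exact p ran from 0.00139 to 0.00833, their rho from 0.89 to 1, and their r without the 2 farthest arrays from 0.81 to 0.9999. They were picked as the highest r of a large number of genes and describe these arrays, and neither paralogue of Lin28 was among the 3 genes closest to the other.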

How the data were processed

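Total RNA of 6 samples of embryoid bodies was measured on Affymetrix Mouse Exon 1.0 ST arrays. The deposited table gives a linear intensity for each gene on each array. According to the methods, the authors ran Robust Multi-array Averaging with Aroma Affymetrix and averaged the exons assigned to each gene in the manufacturer's annotation. The submitters' processing notes name Affymetrix Expression Console and RMA. The genome build of the annotation and the arrays normalized together are not given in the sources used here. The authors' later correction for batches of neurons is not part of these values, and their screen for outlying arrays may already have been applied. The table held 0 columns of other samples. The precision is limited by the number of arrays.

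Altered gene names were restored for 1209 of 19613 rows, and 17541 names were current symbols and 1814 synonyms in a RefSeq table of GRCm38.p6, used for names. The 10 genes all matched. The list genes L1td1, Hmga2 and Slc18a3 were not analysed here. Intensities were taken to log2 without a pseudocount. Levels were tested against the 95th percentile of the olfactory receptor means with limma 3.58.1 in R 4.3.3 (intercept only, eBayes, two-sided, Benjamini-Hochberg over all genes, threshold 0.05). Covariation was tested by two-sided exact permutation of Pearson's r and Spearman's rho over 720 pairings, whose smallest p is 0.00139, with adjustment over all genes for each of the 10 genes. Both tests were checked on simulated data. Titles number the replicates, and the methods count 6 Huntington's disease samples. The labels do not tie each array to a separate culture or donor mouse, so the spread between arrays may be partly technical.

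All 10 genes are named, and from each list at most the 4 highest and 4 lowest that passed, with the 3 genes of highest r per gene above background. The remaining neural POU factors were named for completeness after their values were seen, as were further naive network genes called above. The 10 genes, the 13 lists (naive network, formative epiblast, Nodal pathway, Lin28 and let-7 axis, neural progenitor, neural POU factors, motor neuron, proliferation, primitive endoderm, mesoderm and endothelium, simple epithelium, trophoblast, germ cell) and the tests were chosen with earlier results of these data known. Alternatives changed the background, the scaling, the pseudocount, the measure of correlation and the arrays used. Promoters and motifs were read from RefSeq sequences by exact letter matches on both strands.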

Additional observations from a re-analysis of the deposited data

Results flagged for a closer look

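Among the 10 genes and 121 measured list genes, 10 had 1 array whose gap to its nearest neighbour was a larger part of its whole range than Dixon's 95% limit for 6 arrays allows. Chance alone flags about 1 in 20 such sets, or 6.55 of 131. Of the 10 pluripotency genes only Pou5f1 was among them, with 7.63 in replicate 5 against 7.26 to 7.39 in the other arrays. In the naive network, Nr0b1 was lowest in replicate 2 at 7.13 (others 7.38 to 7.51) and Sall4 highest in replicate 4 at 8.78 (others 8.55 to 8.64). In the Nodal pathway, replicate 8 was lowest for Cfc1 at 6.74 and highest for Acvr2b at 9.24. In the let-7 axis, Zcchc11 was lowest in replicate 7 at 10.94, Zcchc6 lowest in replicate 5 at 9.02 and Dicer1 highest in replicate 8 at 10.94. Replicate 8 was also lowest for Tek at 5.91 and for Elf5 at 6.06. Replicate 8 was the far array in 5 of the 10 genes, lowest for 3 genes called below background (Cfc1, Tek and Elf5) and highest for 2 called above (Acvr2b and Dicer1). It also had the lowest olfactory receptor level, 7.26 against 7.42 to 7.60. The cause was not tested.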

How the results depend on the processing

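The count of 7 genes above background was 7 with the background of each array, median centring, quantile normalization, a pseudocount of 16 and without any 1 array. It was 2 at the 99th percentile of the olfactory receptor genes and 2 with vomeronasal and keratin-associated genes, and, in alternatives chosen after seeing the data, 10 with vomeronasal genes alone and 1 with keratin-associated genes alone. At the 99th percentile the distances turned to -0.17 for Klf4, -0.31 for Utf1, -0.23 for Lin28a and -0.24 for Lin28b. With vomeronasal and keratin-associated genes they turned to -0.61 for Klf4, -0.74 for Utf1, -0.37 for Tdgf1, -0.66 for Lin28a and -0.67 for Lin28b. Pou5f1 and Zfp42 were called below in both. A higher level lowers every distance by construction. Zfp42, which passed in neither direction, ranged from -0.017 to 0.019 without 1 array and changed sign without replicates 2 (0.018), 4 (0.0066), 7 (0.019) and 8 (0.0058). Nanog, Sox2 and Esrrb kept their calls in all 12 fitted alternatives. The 81 list genes above background numbered 58 to 81 in the alternatives.

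The 2 covarying pairs were 1 by Spearman's rho, 1 among genes called above background and 6 with the olfactory level of each array subtracted (chosen after seeing the data), and 1 to 3 without 1 array. It was 1 without replicate 2, 4 or 6 and 3 without replicate 7 or 8. Zfp42 with Klf4 kept an exact p under 0.05 in each scaling and without each array, and had r = 0.91 (exact p = 0.0528) with the array level subtracted. Lin28a with Lin28b had r = 0.89 (exact p = 0.0167) after median centring and 0.93 (exact p = 0.00972) under quantile normalization. For Zfp42 with Esrrb r turned to -0.67 under quantile normalization, -0.49 with the level subtracted and -0.30 as a partial r. For Klf4 with Esrrb these were -0.59, -0.32 and -0.18. The cause was not tested. No paired analysis was possible because there is 1 group.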

Other observations

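Zfp42, Klf4 and Esrrb moved with many genes of low level. When the genes called above background were divided by level into 4 bins of equal size, the median r over the 6 arrays in the lowest bin was 0.47 with Zfp42, 0.45 with Klf4, 0.45 with Esrrb and 0.50 with the olfactory receptor level of each array. In the other 3 bins these medians were negative, between -0.14 and -0.36. Genes share arrays and are not independent replicates, so these medians are descriptions.

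Of the 81 list genes called above background, 11 had an unadjusted exact permutation p under 0.05 with Zfp42, or 13.6%, against 19.7% of all genes called above background. Of these, 6 had a positive r, namely Fgf4 (0.95), Myod1 (0.95), Eomes (0.94), T (0.94), Cdx2 (0.88) and Nodal (0.85), and each had r between 0.90 and 0.99 with the olfactory receptor level. The other 5 had a negative r, namely Pou2f1 (-0.96), Acvr2a (-0.93), Lifr (-0.92), Tet1 (-0.84) and Mycn (-0.82), with r between -0.98 and -0.78 with that level. When the 2 arrays with the most extreme Zfp42 values were left out, Tet1 and Mycn had r of -0.067 and -0.098, and the other 9 kept 0.56 or more in size. None passed over all genes, the lowest adjusted p being 0.116.

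With Lin28a, 11 of the 81 list genes had such a p (13.6%, against 6.28% of all genes called above background), 5 with a positive and 6 with a negative r, and with Lin28b 5 had one (6.17%, against 6.21%), 3 with a positive and 2 with a negative r. Of the 8 motor neuron genes, 3 had one with Lin28a, where Map2 (-0.89, exact p = 0.00417) and Tubb3 (-0.83, exact p = 0.0444) had a negative r and Lhx3 a positive one (0.83, exact p = 0.0431), which was 0.39 without the 2 farthest arrays. With Lin28b it was 1 of 8, Map2 (-0.82, exact p = 0.0347). None passed over all genes, the adjusted p for Map2 being 0.778 with Lin28a and 0.922 with Lin28b.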
